A study of Mus musculus with 4 samples.

Results

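The testis RNA of wild type mice was described here from 2 RNAseq libraries, wild type replicates 1 and 2, which are the 2 members chosen by their genotype label out of 4 libraries of the series. The other 2 libraries come from *Parp1* knockout testes and were not used. All 4 were made from testis, and for the wild type the labels give no transgene, treatment, strain or age, so that the word adult could not be checked against a label. Nothing in the labels says whether the replicates came from separate mice, and a spread between them may therefore be technical. RNA was selected by its poly(A) tail, so that the values describe RNA that passed this selection.

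The testis holds germ cells in all stages of sperm formation next to somatic cells. Spermatogonia divide by mitosis, spermatocytes pair and recombine their chromosomes in meiosis, and round spermatids grow an acrosome and a tail. Elongating spermatids then replace their histones first by transition proteins and afterwards by protamines, small basic proteins that pack the sperm genome, and they store much of the mRNA for this exchange before it is translated. Sertoli cells nurse the germ cells inside the tubule, peritubular cells form its wall, and Leydig cells between the tubules make testosterone.

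The libraries held 20449210 exon reads in replicate 1 and 23503503 in replicate 2. Of the reads that the deposited RPKM values were scaled to, 94.6% and 94.8% lay in genes and 89.1% and 89.5% on exons. Exon-exon junctions were crossed by 62.5% of exon reads in replicate 1 and 60.4% in replicate 2. Of gene reads 5.87% and 5.59% were counted as intron reads. Levels are given as TPM (exon reads divided by exon length and scaled to the same sum in each library) and as mean ± SD over both libraries (n = 2). The word percent of TPM means a share of that sum.

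All 6 genes used to check the tissue were found in both libraries. *Prm1*, which encodes protamine 1, ranked 1 of all genes by mean TPM. *Tnp2*, which encodes transition protein 2, ranked 4, and *Ldhc*, the lactate dehydrogenase of germ cells, ranked 9. The Leydig cell hormone *Insl3* ranked 28, *Clu*, a secreted chaperone of Sertoli cells, ranked 94, and *Sycp3*, a part of the chromosome axis in meiosis, ranked 679. Both libraries labelled testis therefore held markers of meiotic cells, late spermatids, Sertoli cells and Leydig cells.

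The most abundant transcripts were those of the histone to protamine exchange. *Prm1* (ENSMUSG00000022501, chr16:10796326-10805839, GRCm38, minus strand) was at 15756 TPM in replicate 1 and 16384 TPM in replicate 2. *Tnp1*, which encodes transition protein 1 (ENSMUSG00000026182, chr1:73015074-73015909, minus strand), was at 14353 and 15062 TPM. *Prm2*, which encodes protamine 2 (ENSMUSG00000038015, chr16:10791380-10796134, minus strand), was at 14651 and 14109 TPM. The levels of *Tnp1* and *Prm2* overlapped between the libraries, whereas *Prm1* was above both in each library. *Tnp2* (ENSMUSG00000043050, chr16:10787936-10788660, minus strand) was at 12132 and 13270 TPM, the lowest of the 4 in each library. *Prm1*, *Prm2* and *Tnp2* lie close together on chromosome 16, with *Prm3* (chr16:10790505-10790914) between *Tnp2* and *Prm2*. The 4 genes held 5.69% and 5.88% of TPM, but 1.53% and 1.58% of exon reads, since their exon lengths are only 437 to 894 bases.

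The coding sequences of *Prm1* and *Tnp1* are shown because they carry the feature that these proteins are known for, their content of arginine, which binds the DNA backbone. They were taken from the GENCODE M21 transcripts, with arginine codons in capitals.
Prm1: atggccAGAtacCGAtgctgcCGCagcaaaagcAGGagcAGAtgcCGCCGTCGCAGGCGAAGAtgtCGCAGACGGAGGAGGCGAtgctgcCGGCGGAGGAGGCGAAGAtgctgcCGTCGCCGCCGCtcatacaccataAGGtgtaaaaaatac
Tnp1: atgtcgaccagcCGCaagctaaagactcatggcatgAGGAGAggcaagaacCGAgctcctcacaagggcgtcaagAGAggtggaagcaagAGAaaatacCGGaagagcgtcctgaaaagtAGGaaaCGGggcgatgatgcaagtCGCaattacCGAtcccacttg
Of the 51 codons of *Prm1* 28 encode arginine, which is 54.9%, and of the 55 codons of *Tnp1* 11 do. Among 16468 genes with at least 10 reads and a complete coding sequence, *Prm1* ranked 1 by percent of arginine, *Prm2* ranked 3 with 35.5%, *Tnp1* ranked 15 and *Tnp2* ranked 136 with 13.7%. *Prm1* also had 17.6% cysteine codons and *Prm2* 14.95% histidine codons. Over these 16468 genes the mean percent of arginine was 5.87%, when each gene counted once. Mitochondrially encoded genes are not among them, here and in the weighted values that follow. When each gene was weighted by its TPM, arginine came to 7.73% in replicate 1 and 7.79% in replicate 2, and without *Prm1*, *Prm2*, *Tnp1* and *Tnp2* to 6.18% and 6.20%. The coding sequences behind a transcript were also shorter than those behind a gene, with a median of 310 and 307 codons by TPM and of 451 codons over genes.

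The stretch just upstream of the start of 3 of these genes is shown because the late spermatid genes lead the library. Each is 100 bases of RefSeq promoter sequence (GRCm38.p6), written 5′ to 3′ on the gene's strand and ending at the base before the RefSeq start. For *Prm2* this stretch lies inside the gene span given above, which begins further upstream than the RefSeq start. *Prm1* is not shown because its start differs between RefSeq and GENCODE. Capitals mark TATA between 40 and 20 bases before the start, and the letters TGANGTCA or their reverse complement TGACNTCA, which cover the site TGACGTCA bound by CREB family factors such as CREM, the activator of many spermatid genes.
Tnp1, chr1:73015900-73015999, minus strand: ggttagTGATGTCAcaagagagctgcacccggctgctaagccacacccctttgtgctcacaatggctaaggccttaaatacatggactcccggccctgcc
Prm2, chr16:10792106-10792205, minus strand: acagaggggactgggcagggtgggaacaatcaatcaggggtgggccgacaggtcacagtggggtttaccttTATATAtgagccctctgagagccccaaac
Tnp2, chr16:10788656-10788755, minus strand: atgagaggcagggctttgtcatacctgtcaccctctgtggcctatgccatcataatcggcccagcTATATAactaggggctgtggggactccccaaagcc
*Tnp1* had the TGANGTCA letters and no TATA in that place, and *Prm2* and *Tnp2* had TATA and no TGANGTCA in the 250 bases before the start. Of the 21 genes of the elongating spermatid list 18 matched a RefSeq promoter. The TGANGTCA letters stood in the 250 bases before a start of 9 of these 18, among them *Prm1*, *Akap3*, *Akap4*, *Gapdhs* and *Prm3*. TATA stood between 40 and 20 bases before a start of 5, namely *Akap3*, *Prm1*, *Prm2*, *Ropn1* and *Tnp2*. Over all 13043 matched genes with at least 10 reads, the shares were 8.58% for TGANGTCA and 4.40% for TATA. The full site TGACGTCA was rarer. Counted by window, as a gene can have several starts, it stood in 0 of 21 windows of the elongating spermatid list. Over all genes it stood in 2.27% of 16424 windows. In the round spermatid list the TGANGTCA letters stood in 7 of 21 windows, 33.3%, against 7.2% of windows over all genes. TATA reads the same on either strand, and a match is a description of the letters, with no statement on binding.

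**Figure D1:**
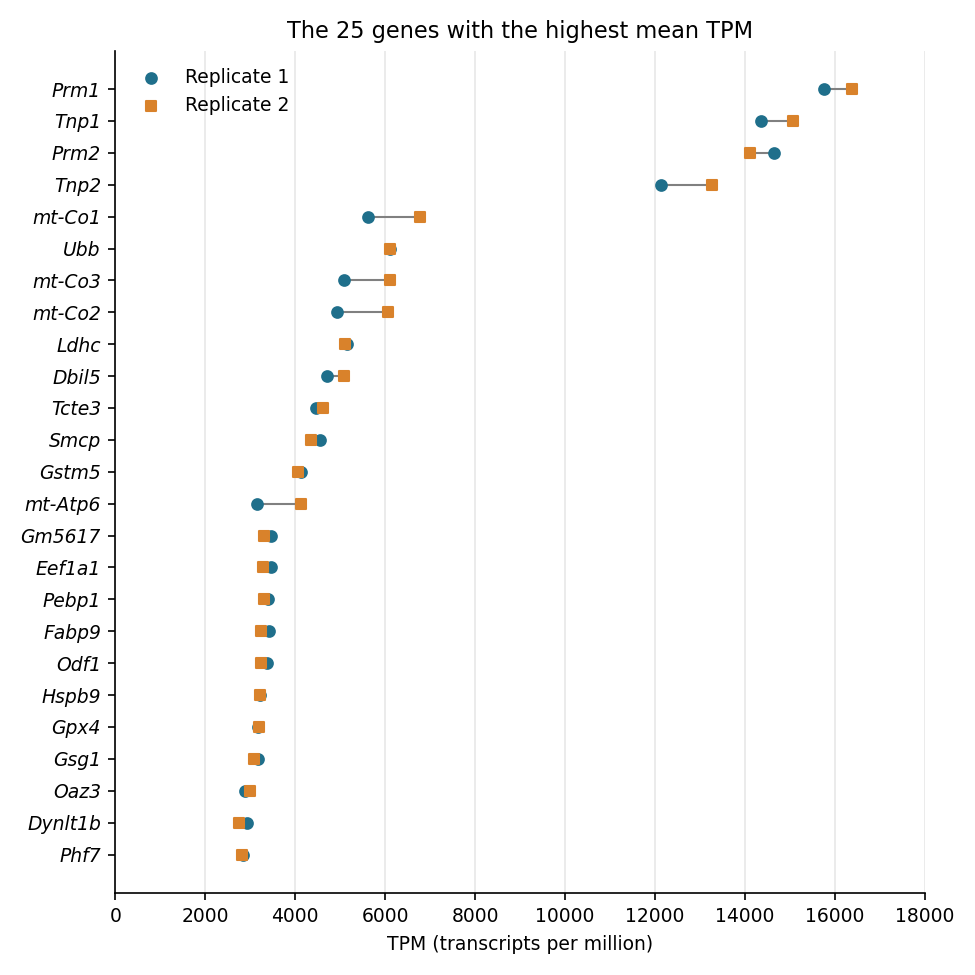
TPM of the 25 genes with the highest mean TPM (horizontal axis, linear) in wild type replicate 1 (circles) and replicate 2 (squares), with a line between both values of a gene. *Prm1*, *Tnp1*, *Prm2* and *Tnp2* lie between 12132 and 16384 TPM, apart from the other 21 genes, and the 4 mitochondrially encoded genes show the widest gaps between the libraries among the rest.

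Below the leading 4 came mitochondrially encoded mRNAs, metabolic enzymes and sperm structure genes. *mt-Co1*, a subunit of cytochrome c oxidase, was at 5623 and 6767 TPM, and *mt-Co3*, *mt-Co2* and *mt-Atp6* were also among the 25. *Ubb*, a polyubiquitin gene, was at 6113 and 6099 TPM. *Ldhc* was at 5159 and 5112 TPM, and *Dbil5*, a testis gene related to the diazepam binding inhibitor, at 4705 and 5082 TPM. *Smcp*, a cysteine-rich protein of the sperm mitochondrial capsule, was at 4544 and 4357 TPM, and *Odf1*, a protein of the outer dense fibres along the tail, at 3363 and 3238 TPM. *Gpx4*, the selenium enzyme that forms part of the mitochondrial capsule, averaged 3182 ± 31 TPM. *Oaz3*, the ornithine decarboxylase antizyme of spermatids, averaged 2936 ± 78 TPM, *Gstm5*, a glutathione transferase, 4098 ± 55 TPM, and *Fabp9*, a fatty acid binding protein of germ cells, 3321 ± 124 TPM. *Hspb9*, a small heat shock protein of testis, was at 3208 and 3209 TPM, the closest pair of values among the 25. *Pebp1*, *Gsg1*, *Phf7* and *Gm5617* averaged 2826 to 3379 TPM, and *Eef1a1*, the general translation elongation factor, 3371 ± 129 TPM.

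Not every gene of this group could be read with the same certainty. *Tcte3* averaged 4541 ± 112 TPM, but only 2.42% of its exon reads were counted as unique, a class of the deposited table whose exact rule is not given in the sources used here. *Dynlt1b*, a dynein light chain gene, averaged 2839 ± 128 TPM with 36.9% unique reads. Reads that are not unique can come from near-identical copies and from genes that cover the same bases, and the level of a single gene is uncertain there. Of the 100 genes with the highest mean TPM 6 had under 50% unique reads.

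The transcriptome was concentrated in few genes. The first 10 genes held 9.13 ± 0.39% of TPM, the first 25 14.3 ± 0.4%, the first 100 26.1 ± 0.5% and the first 1000 61.6 ± 0.4%. In replicate 1 549 genes and in replicate 2 528 genes held the upper 50% of TPM. The 100 genes with the highest mean TPM took 14.03 ± 0.22% of exon reads, less than of TPM, and 96 genes were shared by the first 100 of each library. Of these 100 genes 75 fell into the shortest of 5 classes by exon length, and their median exon length was 1274 bases, against 3250 bases over all genes with at least 10 reads. Among the 100 were 12 genes of the elongating spermatid list, 7 mitochondrially encoded genes, 5 ribosomal protein genes, 7 genes with Rik or Gm names, 1 X-linked gene (*Akap4*) and 2 genes of the somatic lists (*Insl3* and *Clu*).

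Over the whole table, 25683 genes were listed, of which 21941 had an exon length. Exon reads were found in 18276 genes in replicate 1 and 18353 genes in replicate 2, in 17780 genes in both and in 18849 genes in either, which is 85.9% of genes with an exon length. A mean TPM over 1 was reached by 14224 genes, over 10 by 8553, over 100 by 1949 and over 1000 by 102. The median over genes with an exon length was 4.32 TPM. In 16711 genes the libraries had at least 10 exon reads together, and medians over genes are given for these unless stated otherwise. A gene with 0 reads may still have been present at up to 3 reads, which is 0.147 CPM (reads scaled to the library total) in replicate 1 and 0.128 in replicate 2. Such limits cover counting error only.

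Next, the levels were summed by stage, from lists of genes known as markers of each cell type. These lists differ in their number of genes and in how abundant single mRNAs are, so the sums rank mRNA and not cells, and in a bulk sample fewer cells of a type and less RNA per cell cannot be told apart. The 21 genes of the elongating spermatid list held 8.13% and 8.29% of TPM and 3.06% and 3.11% of exon reads (95% Wilson intervals 3.05% to 3.07% and 3.10% to 3.12%, of counting error only). Without *Prm1*, *Prm2*, *Tnp1* and *Tnp2*, an alternative chosen after seeing the data, the list held 2.43% of TPM, above each of the other cell type lists. All 21 genes were at 316 TPM or above in each library, with a median of 1304 TPM. After the genes already given, the list was led by *Gapdhs*, the sperm glyceraldehyde phosphate dehydrogenase, at 2490 and 2499 TPM, *Hils1*, a spermatid histone of the linker type, at 1636 and 1674 TPM, and *Akap4*, the main scaffold protein of the fibrous sheath, at 1678 and 1609 TPM. *Cabyr*, a calcium-binding protein of the fibrous sheath, was the lowest at 316 and 317 TPM.

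The pachytene spermatocyte list had 14 genes and 1.24% and 1.23% of TPM, of which *Ldhc* alone made 41.7%. It was followed by *Ybx2*, the RNA-binding protein that holds germ cell mRNA back from translation, at 2587 and 2684 TPM, by *Pgk2*, the germ cell phosphoglycerate kinase, at 1510 and 1391 TPM, by *Hspa2*, a meiotic heat shock protein, at 1270 and 1235 TPM, and by *Clgn*, a chaperone needed for sperm surface proteins, at 389 and 391 TPM. The lowest in this list was *H1f6*, the linker histone of spermatocytes, at 2.83 and 3.50 TPM, from 23 and 33 reads. This is a level in RNA selected by its poly(A) tail, and how much of its mRNA carries such a tail was not tested. The round spermatid list had 22 genes and 0.555% and 0.513% of TPM. *Tssk2*, a testis kinase, was at 949 and 974 TPM, and *Klhl10*, a ubiquitin ligase adaptor, at 509 and 471 TPM. *Acrv1*, *Zpbp2* and *Spaca4*, proteins of the acrosome or the sperm head surface, were at 446 and 346 TPM, 378 and 356 TPM, and 351 and 310 TPM. *Acrv1* differed by a log2 ratio of 0.35 between the libraries. Higher in replicate 1 were 17 of the 22 genes, as were 8232 of all 16711 genes with at least 10 reads. The median was 1304 TPM in the elongating spermatid list, 242 TPM in the pachytene list and 175 TPM in the round spermatid list, against 10.7 TPM over all genes with at least 10 reads.

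Genes of the synaptonemal complex and of meiotic recombination were lower. The early spermatocyte list, of which 28 genes matched, held 0.236% and 0.223% of TPM. *Syce1*, a central element protein of the complex, was at 448 and 440 TPM, *Sycp3* at 285 and 256 TPM, *Syce3* at 271 and 261 TPM, *Syce2* at 242 and 238 TPM, and *Stag3*, the meiotic cohesin subunit, at 244 and 230 TPM. Structural proteins thus led the list, and *Spo11*, the enzyme that cuts DNA to start recombination, was at 61.7 and 52.8 TPM. *Dmc1*, the meiotic recombinase, was at 17.5 and 18.8 TPM, and *Prdm9*, which marks the sites to be cut, at 3.26 and 3.35 TPM. *Mei4*, which is needed for these cuts, was the lowest at 0.327 and 0.305 TPM, from 12 and 13 reads. These 4 genes were chosen after their values were seen.

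The spermatogonial list of 17 genes held 0.0980% and 0.0989% of TPM. *Dmrtb1*, a factor of late spermatogonia in the passage to meiosis, made 69.3% of this sum at 674 and 691 TPM. *Uchl1*, a ubiquitin hydrolase, followed at 124 and 125 TPM, then *Dmrt1*, a regulator of mitosis against meiosis, at 38.9 and 36.5 TPM, *Id4*, which marks stem cells, at 25.8 and 26.5 TPM, and *Stra8*, the retinoic acid target that starts meiosis, at 23.1 and 23.4 TPM. *Nanos2*, which marks the earliest cells of the lineage, had 3 reads in replicate 1 and 0 in replicate 2. The stem cell receptor gene *Gfra1* was at 3.06 and 3.55 TPM and *Zbtb16* at 2.87 and 2.64 TPM, both named after their values were seen. In a list of 11 regulators of meiosis and spermiogenesis, 7 of which also stand in the lists above, *Fhl5*, the coactivator of CREM, was at 425 and 408 TPM, *Tcfl5* at 351 and 382 TPM, *Rfx2* at 242 and 237 TPM, *Tbpl1* at 203 and 193 TPM and *Sox30* at 147 and 159 TPM. *Tbpl2*, the TATA-binding protein of oocytes, had 0 reads in both libraries.

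**Figure D2:**
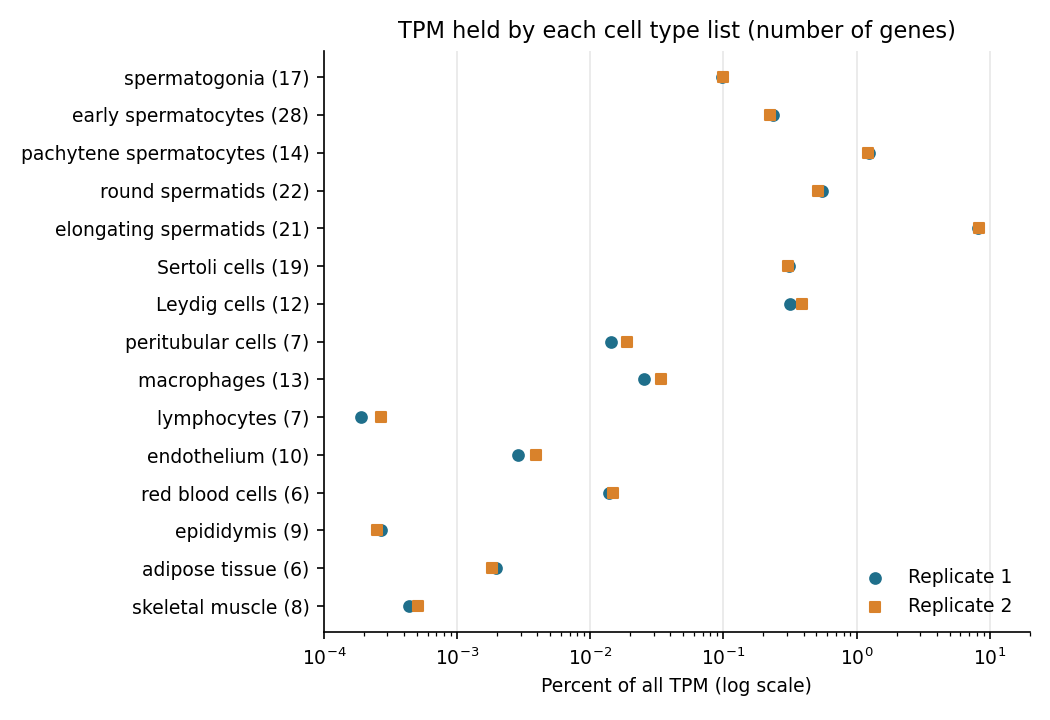
Percent of all TPM held by each of 15 cell type lists (horizontal axis, log scale) in wild type replicate 1 (circles) and replicate 2 (squares), with the number of genes in brackets. The elongating spermatid list held 8.13% and 8.29%, the Leydig cell list 0.314% and 0.390%, and the lists of lymphocytes and epididymis under 0.001%.

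The 7 somatic lists, with 74 genes, held 0.682% and 0.767% of TPM, and the 5 germ cell lists, with 102 genes, 10.3% and 10.4%, which compares these genes and not the RNA of the cell types. Among Sertoli cell genes, *Clu* was at 1058 and 1070 TPM, and *Cst9* and *Cst12*, cystatin genes, at 460 and 409 TPM and at 326 and 298 TPM. *Aard* was at 353 and 357 TPM and *Amhr2*, the receptor of anti-Müllerian hormone, at 327 and 322 TPM. *Sox9*, the factor that sets Sertoli cell fate, was at 13.6 and 14.5 TPM, and the hormone gene *Amh*, which is high in immature Sertoli cells, at 4.51 and 4.05 TPM. The follicle-stimulating hormone receptor *Fshr* had 42 and 68 reads. These last 3 were named after their values were seen.

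Leydig cell genes were led by *Insl3* at 2305 and 2865 TPM, which made 73.4% of the list's TPM. Its value needs care, since 57.4% of its exon reads were unique and 404 bases of its exons are shared with another listed gene. The enzymes of testosterone synthesis followed, with *Cyp17a1* at 288 and 368 TPM, *Hsd3b6* at 163 and 191 TPM and *Cyp11a1*, which cuts the side chain of cholesterol, at 152 and 193 TPM. *Star*, which carries cholesterol into mitochondria, was at 55.2 and 74.3 TPM. All 12 genes of the list were higher in replicate 2, as were 8479 of all 16711 genes with at least 10 reads.

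Of peritubular genes, *Myl9* was at 85.8 and 97.1 TPM, *Acta2*, the smooth muscle actin, at 30.8 and 49.95 TPM, *Tagln* at 11.4 and 20.3 TPM, *Myh11* at 7.13 and 10.4 TPM and *Des* at 3.56 and 4.86 TPM. Of macrophage genes, the Fc receptor *Fcgr3* was at 84.2 and 80.5 TPM, *Cd74*, the invariant chain of MHC class II, at 23.7 and 52.1 TPM, *Lyz2*, lysozyme, at 28.8 and 37.5 TPM, *H2-Ab1* at 23.5 and 32.3 TPM and the complement gene *C1qb* at 20.9 and 29.3 TPM. Endothelial genes were low, with the tight junction gene *Cldn5* at 10.2 and 16.3 TPM, *Egfl7* at 5.94 and 5.41 TPM, *Vwf* at 4.48 and 5.05 TPM, *Cdh5* at 3.16 and 4.07 TPM and *Pecam1* at 0.975 and 1.75 TPM. Of red cell genes *Hbb-bs* was at 50.8 and 56.8 TPM, *Hba-a2* at 24.8 and 38.6 TPM, *Hba-a1* at 26.5 and 19.9 TPM, *Hbb-bt* at 8.47 and 10.9 TPM and *Alas2*, which starts haem synthesis, at 27.0 and 20.8 TPM. The globin copies had 37.9% to 59.6% unique reads and cannot be told apart with certainty.

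Markers of neighbouring tissue and of lymphocytes were mostly low, with *Adipoq* the highest. The epididymal genes *Lcn5*, *Lcn6*, *Lcn8* and *Lcn10* had 0 reads in both libraries, *Crisp1* 1 and 2 reads, *Lcn9* and *Rnase9* 1 and 0 reads each and *Adam7* 0 and 1 read. *Rnase10*, with 35 and 40 reads, made 90.8% of that list. Of 7 lymphocyte genes *Cd8a* had 0 reads in both libraries, and *Cd3e* and *Cd4* were at or below 1.06 TPM, with *Cd3g* and *Ms4a1* at 3 or 4 reads or at 0. The adipose list was led by *Adipoq*, the fat cell hormone adiponectin, at 16.8 and 14.8 TPM, from 207 and 212 reads, which made 84.1% of its sum and is above the median of 10.7 TPM over genes with at least 10 reads. Of its gene reads 54.7% lay in introns, and 0.48% of its exon reads crossed a junction. It was followed by *Plin1* at 2.01 and 1.56 TPM, from 83 and 75 reads, and by *Plin4*, *Cfd* and *Cidec* at under 1 TPM. The skeletal muscle list was led by *Mylpf* at 2.08 and 2.69 TPM and *Myh1* at 1.20 and 0.898 TPM, from 68 and 59 reads, with *Ckm*, *Atp2a1* and *Acta1* under 1 TPM.

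The germ line uses its own copies of many housekeeping proteins. Of 21 pairs of a germ cell gene and a widely expressed relative, the germ cell gene had the higher TPM in both libraries in 17 and the lower TPM in both in 4, with a median ratio of 6.26. Among enzymes of glycolysis, on which the sperm tail draws, *Gapdhs* exceeded *Gapdh* (109 and 108 TPM) 22.9 ± 0.3-fold and *Ldhc* exceeded *Ldha* (977 and 943 TPM) 5.35 ± 0.10-fold. Among heat shock genes, *Hspa1l* at 810 and 836 TPM exceeded *Hspa1a* at 7.31 and 6.26 TPM by 111 and 134 times, and *Hspa2* exceeded *Hspa8* (248 and 253 TPM) by 5.12 and 4.88 times.

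In respiration, *Cyct*, the testis cytochrome c, was at 181 and 176 TPM against 24.4 and 22.1 TPM of *Cycs*, which had 69.4% unique reads. *Cox6b2* at 692 and 618 TPM exceeded *Cox6b1* at 107 and 102 TPM, and *Cox8c* at 1084 and 1117 TPM exceeded *Cox8a* at 95.9 and 120 TPM. The ADP/ATP carrier *Slc25a31* exceeded *Slc25a4* by only 1.27-fold in each library, at 73.2 and 74.5 TPM against 57.7 and 58.5 TPM. The calcineurin subunit *Ppp3r2* exceeded *Ppp3r1* 14.2 ± 0.2-fold, at 380 and 366 TPM against 26.5 and 26.05 TPM, and the proteasome subunit *Psma8* exceeded *Psma7* 1.68 ± 0.05-fold, at 133 and 124 TPM against 77.8 and 75.7 TPM. *Clgn* exceeded *Canx* (120 TPM in each library) 3.25 ± 0.01-fold. Another chaperone pair ran the other way, with *Calr3* at 148 and 150 TPM and *Calr* at 762 and 699 TPM, and the actin-like *Actl7a* at 549 and 530 TPM was below *Actb* at 676 and 705 TPM.

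In 8 of the pairs the germ cell gene is an autosomal retrocopy of an X-linked gene. The X chromosome is silenced in pachytene spermatocytes, and such copies are known to take over the function of their X-linked parents in these cells. *Pgk2* exceeded X-linked *Pgk1* (30.9 and 32.7 TPM) 45.7 ± 4.5-fold. *Pdha2* was at 180 and 178 TPM against 5.37 and 6.04 TPM of *Pdha1*, and the centrin gene *Cetn1* at 699 and 708 TPM against 10.04 and 12.7 TPM of *Cetn2*. The RNA-binding protein gene *Rbmxl2* was at 150 and 164 TPM against 3.74 and 2.95 TPM of *Rbmx*, and *G6pd2*, of the pentose phosphate pathway, at 40.5 and 39.5 TPM against 10.5 and 12.3 TPM of *G6pdx*. The ribosomal gene *Rpl10l* was at 414 and 405 TPM against 37.0 and 63.3 TPM of *Rpl10*, for which 7.55% of reads were unique, so that this ratio is uncertain. In the remaining 2 pairs the retrocopy was not higher, with the ribosome assembly gene *Utp14b* at 7.14 and 6.52 TPM against *Utp14a* at 8.16 and 6.56 TPM, and the polyadenylation factor gene *Cstf2t* at 24.2 and 23.9 TPM against *Cstf2* at 29.0 and 29.4 TPM. The 2 values of *Utp14b* and *Utp14a* overlapped.

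Over the chromosome as a whole, X-linked genes were at lower levels than autosomal genes. The median of 757 X-linked genes with at least 10 reads was 4.87 and 4.996 TPM, and that of 15831 autosomal genes 11.2 TPM in both libraries, a ratio of 0.439 ± 0.008. The medians of single autosomes ran between 7.78 TPM (chromosome 14) and 13.97 TPM (chromosome 19), all above the X. A mean TPM over 100 was reached by 30 X-linked genes, 3.96% of those with at least 10 reads, and by 12.04% of autosomal genes. The X was not lower in the number of genes with reads, since 81.1% of its genes with an exon length had at least 10 reads, against 76.0% of autosomal genes. Of gene reads, a median of 4.14% was counted as intron reads for X-linked genes and of 6.92% for autosomal genes, with single autosomes between 6.29% and 7.78%.

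The leading X-linked genes are known from spermatids, in which part of the X is active again. *Akap4*, at 1678 and 1609 TPM, led, followed by *Tsga8* at 578 and 584 TPM, *Cypt1*, a cysteine-rich perinuclear theca gene, at 540 and 564 TPM, *H2ap*, a histone H2A variant, at 508 and 525 TPM, and *Cypt3* at 253 and 294 TPM. On the Y chromosome 110 genes had at least 10 reads, with a median of 4.21 and 3.91 TPM, and none reached 100 TPM. *Sly*, which restrains sex chromosome genes in spermatids, was at 42.6 and 38.9 TPM with 76.6% unique reads, *Eif2s3y*, a translation initiation factor gene needed for spermatogonia, at 42.9 and 37.6 TPM, *Gm20736* at 36.5 and 34.3 TPM, *Ssty2* at 24.3 and 24.5 TPM and *Uba1y* at 24.5 and 23.1 TPM. Only 61.8% of exon reads on the Y were unique, against 95.6% on the X and 97.6% on autosomes. Many genes of the mouse Y are known to exist in multiple copies.

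**Figure D3:**
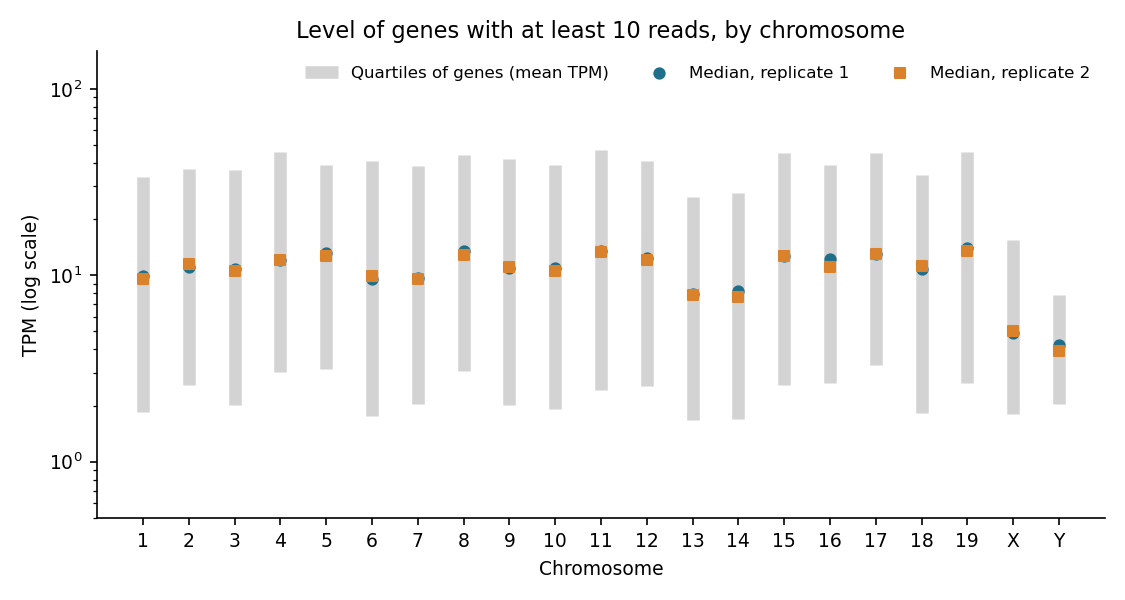
TPM (vertical axis, log scale) of genes with at least 10 exon reads in both libraries together, by chromosome, with the median in wild type replicate 1 (circles) and replicate 2 (squares) and grey bars from the lower to the upper quartile of mean TPM. The X median of 4.87 and 4.996 TPM and the Y median of 4.21 and 3.91 TPM lie below those of all 19 autosomes.

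Levels were set against exon length, since the leading genes are short. Genes with at least 10 reads were divided into 5 classes of near-equal number by exon length. From the shortest class (204 to 1775 bases) to the longest (5527 to 123179 bases) the median was 23.3, 13.8, 10.4, 8.98 and 6.14 TPM, so that it was lower with each step in length. The ratio of the shortest to the longest class was 3.77 ± 0.06, and Spearman's rho across the 16711 genes was −0.23 in each library, where genes are no independent replicates. The size of this ratio depends on the minimum of reads, because a short gene needs a higher TPM to reach 10 reads. It was 1.90 when every gene with a read was kept and 4.74 with at least 10 reads in each library. The shortest class held 50.7% and 51.5% of TPM but 23.3% and 23.7% of exon reads, and the longest class 5.89% and 5.79% of TPM but 19.4% and 19.2% of exon reads. A mean TPM over 1000 was reached by 76 genes of the shortest class and by 0 of the longest.

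**Figure D4:**
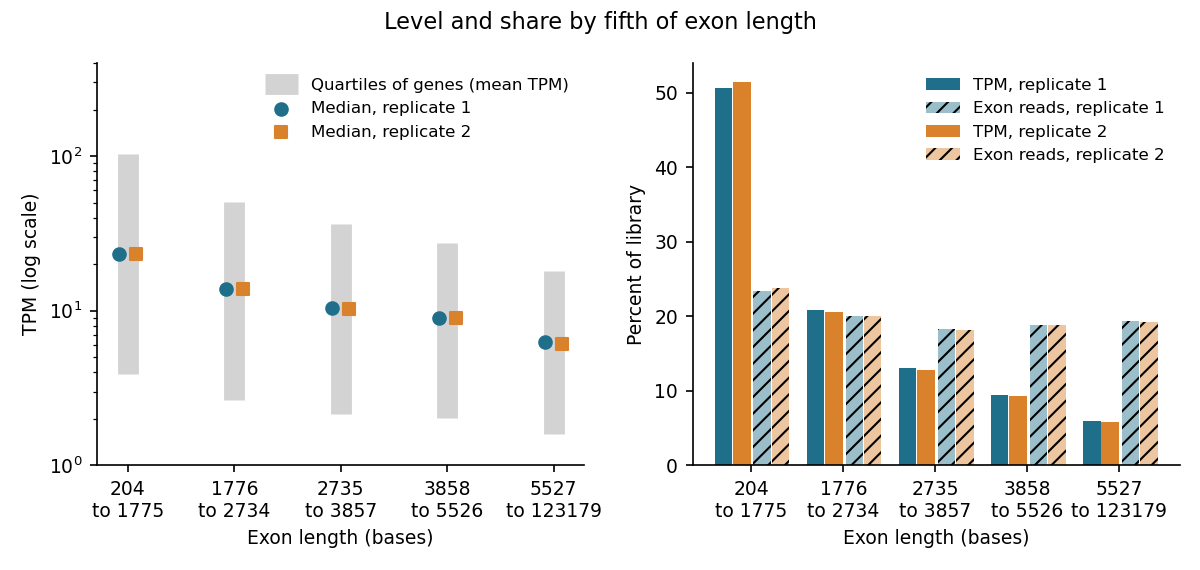
Left, TPM (log scale) of genes in 5 classes of exon length, with medians in wild type replicate 1 (circles) and replicate 2 (squares) and grey bars from the lower to the upper quartile of mean TPM. Right, percent of TPM (plain bars) and of exon reads (hatched bars) in each class and library, where the shortest class held 50.7% and 51.5% of TPM and 23.3% and 23.7% of exon reads.

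Genes with a single exon, among them retrocopies such as *Pgk2*, made up 519 of the genes with at least 10 reads. That is 42.1% of the single-exon genes listed with an exon length, against 78.2% of genes with more exons. Their median was 9.12 and 9.24 TPM, against 10.7 and 10.6 TPM of genes with more exons, and they held 8.57% and 9.19% of TPM, mitochondrially encoded genes included. The leading nuclear ones were *Gm5617* at 3464 and 3294 TPM, *Spz1*, a transcription factor gene, at 2037 and 1995 TPM, *4933411K16Rik* at 1949 and 1915 TPM, and *Hils1*. *Dnajb3*, a spermatid chaperone, was at 1611 and 1699 TPM. *Spz1* and *4933411K16Rik* were named after their values were seen.

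Gene families differed widely in their share. They were formed by name alone, as the family name and a number with at most a few letters between. Members without such a number were left out, and other genes of like name were counted. Genes with Rpl or Rps names held 3.95 ± 0.08% of TPM in 96 genes. Most encode ribosomal proteins, but the rule also takes kinases named after a ribosomal protein. *Rpl41* at 2676 and 2587 TPM led the Rpl names and *Rps29* at 802 and 1073 TPM the Rps names. Genes named Spata, for spermatogenesis associated, held 1.10% of TPM in each library in 29 genes, all with at least 10 reads and with a median of 163 TPM, led by *Spata4* at 1799 and 1857 TPM. At 10 reads or more, which 76.2% of all genes with an exon length reached, were also all 6 Tssk kinases (led by *Tssk6*, 1165 and 1136 TPM). The 8 Catsper channel genes with a number in their name reached it (*Catsper2*, 208 and 187 TPM), and subunits named by letters alone were not counted. So did all 33 Cfap genes of cilia and flagella (*Cfap206*, 648 and 639 TPM) and all 15 Dnah dynein heavy chains (*Dnah8*, 171 and 167 TPM). The same held for all 5 tektins (*Tekt4*, 483 and 444 TPM) and all 37 Tex genes (*Tex33*, 779 and 743 TPM). This was not particular to families of sperm, since all 52 Rpl names, all 47 Slc25 carriers and all 45 Dnaj chaperones reached it too. So did the 21 Ube2 genes that the name rule took, which are a part of the family, without *Ube2s* for example. Of 59 genes with Adam names, for which the rule also takes Adamts proteases, 55 reached it, and of 39 Prss genes 27. Of the tubulins *Tuba3a* at 2580 and 2398 TPM and *Tubb4b* at 2479 and 2288 TPM led, and *Tubb4b* made 93.1% of the TPM of the 8 Tubb genes. *Adam3*, a sperm surface protein, was at 841 and 797 TPM, *Prss39*, a testis protease, at 614 and 608 TPM, and the beta-defensin *Defb19* at 521 and 579 TPM. However, 27 of 42 beta-defensin genes had 0 reads in both libraries, where 3092 of all 21941 genes with an exon length did.

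Sensory receptor genes were mostly at 0, where 3092 of all 21941 genes with an exon length had 0 reads in both libraries. Of 1113 olfactory receptor genes 874 had 0 reads in both libraries and 48 at least 10, with *Olfr761* the highest at 12.1 and 12.3 TPM. All 35 Tas2r bitter taste receptor genes had 0 reads, as did 190 of 228 Vmn1r pheromone receptor genes. Genes with a Rik name held 3.87% and 3.85% of TPM in 488 genes with an exon length, and Gm genes 1.87% and 1.84% in 1343. Both kinds of name together held 5.74% and 5.69% of TPM. *1700003F12Rik* led the Rik genes at 1928 and 1994 TPM.

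High levels were found for some histone variants of spermatids and for some common forms. *Hils1*, *H1f7*, the linker histone of elongating spermatids (965 and 963 TPM), and *H2al2a*, an H2A variant that opens nucleosomes for transition proteins (756 and 691 TPM), were among the high variants. The 18 genes of the family of *H2al2a*, which was added after values were seen, held 0.173% and 0.162% of TPM. The testis variants *H2bc1* and *H2ac1* averaged 2.95 ± 0.45 and 1.96 ± 0.73 TPM in this RNA selected by its poly(A) tail. Of common forms made outside DNA replication, *H2az1* averaged 600.0 ± 34.2 TPM, *H3f3b* 539 ± 13 TPM and *H3f3a* 312 ± 6 TPM. These 5 genes were named after their values were seen. The 53 replication-dependent histone genes, a group added after values were seen because the names of the first list matched only 8, held 0.165% and 0.160% of TPM. *H2ac18*, at 1410 TPM on average, made 86.6% of that sum, with 14.9% unique reads. The earlier list of 8 was led by *Hist1h2bp* at 177 and 164 TPM, with *Hist1h2bq*, *Hist1h4n*, *Hist1h2br* and *Hist1h2ao* at 4.52 TPM or less, and *Hist1h4m* had 0 reads. These mRNAs normally end without a poly(A) tail.

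Of genes used as a reference in expression assays, *Actb* was at 676 and 705 TPM, *Ppia* at 656 and 629 TPM, *Ywhaz* at 139 and 137 TPM and *Gapdh* at 109 and 108 TPM. *B2m*, at 59.5 and 88.4 TPM, had the widest gap among them, with a log2 ratio of CPM of −0.59, which is at the edge of 1.5-fold.

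Finally, the libraries were compared with each other, as the spread between them limits every value above. Across the 16711 genes the correlation of log2 (TPM + 1) was 0.996 (Pearson) and of TPM 0.994 (Spearman), which describes genes and carries no test. The libraries were no duplicates, since a chi-square test of their counts gave 4.21 per degree of freedom, and 3.98 over the 14122 genes with only unique reads (an alternative chosen after seeing the data), where sampling of independent reads gives 1. Copies made by PCR would raise this value too, so that it sets the libraries against counting error only. The coefficient of variation beyond counting was 6.03% by the common dispersion of edgeR. The log2 ratio of CPM, replicate 1 over replicate 2, had a root mean square of 0.40 over all genes. It was 0.87 for genes with a mean of 5 to 20 reads, and 0.08 for the 311 genes with a mean of at least 10000 reads. A formula for counting error alone, which uses no prior count, gave 0.77 and 0.02. More reads thus gave closer values, but above 10000 reads the gap was set by more than counting.

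Past 1.5-fold in either direction were 1509 genes, 9.03% of the 16711 tested, of which 597 were higher in replicate 1 and 912 (5.46%) in replicate 2. The count was 821 among genes with at least 10 reads in each library and 2699 when every gene with a read was kept. With a mean of at least 5 CPM, 126 of 11572 genes were past 1.5-fold, 1.09%. Among these it was 8.11% of the 259 genes with under 50% unique reads and 0.93% of the others.

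Of the 101 germ cell list genes with at least 10 reads 0 were past 1.5-fold, and the median log2 ratio was 0.02. These genes are abundant, with a median of 3274 reads, and genes of that level were seldom past 1.5-fold. Over all genes the share was 44.0% at 5 to 20 reads, 2.73% at 100 to 500 reads, 0.31% at 500 to 2000 reads and 0.04% at 2000 to 10000 reads, so that the 9.03% over all levels is carried by genes of few reads and a count of 0 is near the share at their level. The Leydig, peritubular, macrophage and endothelial lists were not set as a group beforehand. Of their 42 genes, 39 were higher in replicate 2, where 8479 of all 16711 genes were and 8232 were higher in replicate 1. By more than 1.5-fold 15 of the 42 were higher in replicate 2, where 5.46% of all genes were. Their median was 235 reads. Their median log2 ratio was −0.45, against −0.003 over all genes. All 12 Leydig genes and all 7 peritubular genes were higher in replicate 2, whereas 11 of 19 Sertoli genes were, with a median log2 ratio of −0.03. Over all 7 somatic lists, 56 of 69 genes with at least 10 reads were higher in replicate 2, and 17 were so by more than 1.5-fold. The sum of the Leydig, peritubular, macrophage and endothelial lists was 37690 reads in replicate 1 and 55012 in replicate 2. All 13 mitochondrially encoded genes were higher in replicate 2 as well, with a median log2 ratio of −0.40, 2.63% of TPM in replicate 1 and 3.32% in replicate 2. The part that the somatic lists and the mitochondrially encoded genes took in the differences of other genes was not tested.

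Among genes with at least 5 CPM on average, the 8 with the largest log2 ratio in favour of replicate 2 were led by *Gm26657* with 0 and 983 reads, none of them unique. All 1308 exon bases of *Gm26657* (chr4:56740070-56741377, plus strand) are shared and lie within *Actl7b* (chr4:56740005-56741443, minus strand), which had 16483 and 17149 reads. The counts of *Gm26657* thus depend on how shared reads were assigned, and no fold is given. *Col1a1* and *Col3a1*, collagens of connective tissue, had 149 and 530 reads and 242 and 744 reads, with log2 ratios of −1.62 and −1.41. Complement *C3* had 113 and 339 reads (−1.37), *Gpx3*, an extracellular glutathione peroxidase, 91 and 234 reads (−1.15) and *Cd74* 299 and 763 reads (−1.15). *Pde2a* and *Gcat_1* were at −1.28 and −1.16 with 4.15% and 30.1% unique reads. In favour of replicate 1, *Gm14819* (219 and 7 reads), *Gm31571*, *Gm43951*, *Gm14151*, *Gm14147* and *Smok3a*, a sperm motility kinase gene, had 20.4% unique reads or fewer, and their log2 ratios ran between 0.94 and 4.795. The remaining 2, *P2rx3*, an ATP-gated channel gene, with 413 and 262 reads (0.85), and *Wscd2* with 139 and 88 reads (0.84), had only unique reads. Of 24 collagen genes at this level, a group added after values were seen, 9 were past 1.5-fold higher in replicate 2 and 0 higher in replicate 1, where of all 11572 genes at this level 88 and 38 were. Over the 42 collagen genes with at least 10 reads, 13 were past 1.5-fold higher in replicate 2 and 3 in replicate 1.

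**Figure D5:**
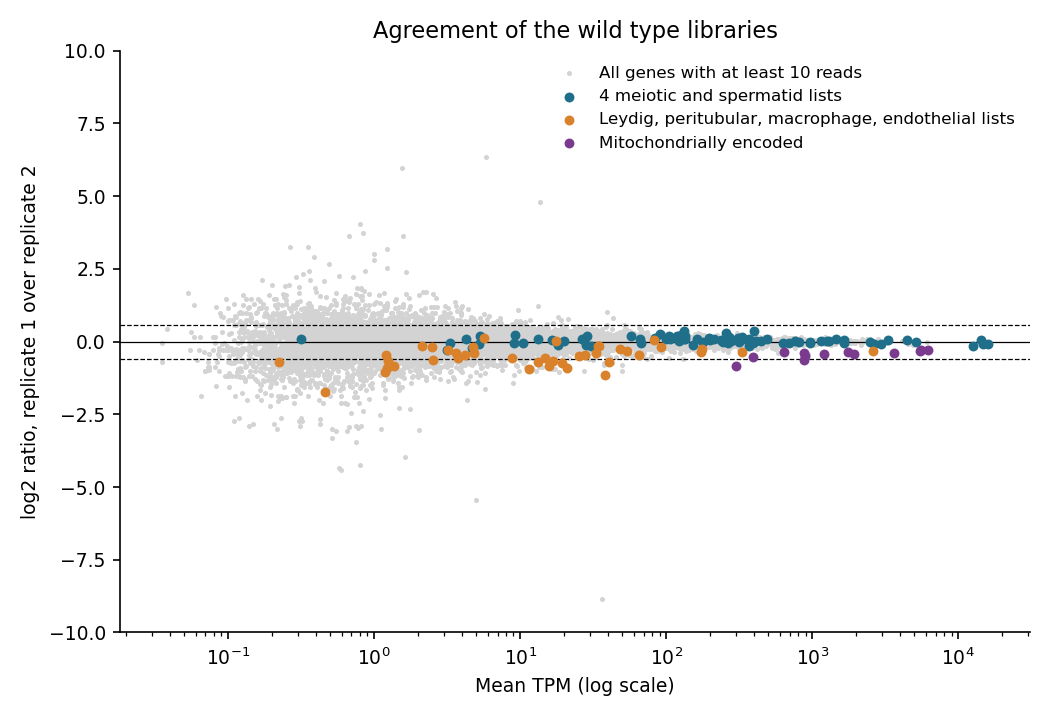
Log2 ratio of CPM, wild type replicate 1 over replicate 2 (vertical axis), against mean TPM (log scale) for 16711 genes, with dashed lines at 1.5-fold. The meiotic and spermatid list genes (blue) lie between the dashed lines, 39 of 42 Leydig, peritubular, macrophage and endothelial genes (orange) lie below 0, as do all 13 mitochondrially encoded genes (purple), and *Gm26657*, whose value depends on the prior count since replicate 1 had 0 reads, is the grey point at −8.85.

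Reads not counted as unique made up 2.43 ± 0.07% of exon reads, and they were uneven over genes. Of the 16711 genes 14122 had only unique reads, 609 (3.64%) had under 50% and 220 under 10%. Exon bases shared with another listed gene in GENCODE M21 were found for 50.7% of those under 50% unique, against 18.1% of the others, and genes with shared bases held 72.8% of all reads that were not unique. Next to *Tcte3*, the largest numbers of such reads were in *Ggnbp1* (0.53% unique, 602 and 606 TPM), *Actl7b* (9.78% unique, 1287 and 1153 TPM) and *Dynlt1b*. *Ggnbp1*, *Actl7b* and *Tcte3* share 2085, 1308 and 193 exon bases with other genes, and *Dynlt1b* shares 0. *Ggnbp1* and *Actl7b* were named after their values were seen.

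Intron reads varied in the same way in both libraries, with a Spearman's rho of 0.87 between them across genes. Unspliced RNA and RNA from unannotated exons cannot be told apart in these counts. The counts also hold reads of genes with no intron between exons. Of 519 single-exon genes with at least 10 reads 306 had reads counted as intron. *mt-Co1*, which is mitochondrially encoded and has 1 exon, had 9247 and 10658 of them. The median gene had 6.73% of its gene reads counted as intron reads, and 795 genes had more intron than exon reads in both libraries.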

How the data were processed

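Poly(A)-selected testis RNA was sequenced in paired ends. Trimming, alignment to GRCm38 (mm10) and counting per gene were done by the authors in CLC Genomics Workbench with standard parameters. They deposited 1 table of 25683 genes with whole-number counts of total and unique exon reads, gene reads, exon-exon reads and intron reads. The deposited RPKM and TPM values were computed by the authors from total exon reads and exon length. RPKM was used only to recover the number of reads it was scaled to. The annotation release and the treatment of reads with several positions are not given in the sources used here. Left out were 46 of the 67 columns that hold values of single libraries, those of the knockout libraries among them. Columns with the authors' own comparison of the genotypes (group means, fold changes, p-values) were not used either.

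Wild type replicates 1 and 2 had 20449210 and 23503503 exon reads. Their number, 2, limits precision more than depth for abundant genes, and no comparison of conditions was made. Levels were described as TPM in each library, or as mean ± SD. The ratio of the libraries was computed on CPM with TMM factors and a prior count of 2 in edgeR 4.0.16 (R 4.3.3), for genes with at least 10 exon reads in the sum, and a chi-square test of these counts asked whether both could be a single library. This statistic was tested on simulated data, and so were the ratios, for genes of many reads only. Biotype and shared exon bases came from GENCODE M21, in which 25640 gene IDs matched, 25431 of them at the same chromosome, start and end. Coding sequences came from its transcripts (the APPRIS principal or else longest one), and promoters from RefSeq.

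Named were the 25 genes with the highest mean TPM, the 6 tissue markers, up to 5 leading genes and the genes at 0 reads of each of 19 lists, the 21 pairs, the 8 largest log2 ratios in each direction at a mean of at least 5 CPM, the leading gene of a family, and 5 genes each of the X and the Y. Further genes are said to be named after their values were seen. The lists, families, pairs and tests were chosen with earlier results of these data known. *Six6os1* of the early spermatocyte list did not match the table. Some list members that this rule names are not reported here.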

Additional observations from a re-analysis of the deposited data

Results flagged for a closer look

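Reads were found in a part of the table that the levels above do not use. For 3742 of the 25683 genes (14.6%) the exon length was 0, so that they could not receive exon reads or a TPM value, and 3214 of them are of the GENCODE M21 biotype TEC, which awaits experimental proof. Another 487 are immunoglobulin or T cell receptor segments. Their gene reads, all counted as intron reads, came to 20358 in replicate 1 and 22656 in replicate 2, in 656 genes with a read in either library. They were led by *Gm41109* (chr14:24425164-24429822, GRCm38, minus strand) with 1648 and 1789 reads, and *1700097M23Rik* (chr6:81893818-81895339, minus strand) with 1349 and 1481 reads. A count of 0 would allow 3 reads.

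Of the genes with more than 1 exon, *Zc3h7a* had the most intron reads, with 8335 in replicate 1 and 10114 in replicate 2, beside 579 and 525 exon reads. *Cdk8* had 7149 and 9931 intron reads beside 560 and 579 exon reads. Whether these reads belong to the named genes or to unannotated transcripts inside their introns was not tested. Groups of 2 libraries are too small for a search for a sample that stands apart.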

How the results depend on the processing

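No paired analysis was possible because both libraries belong to 1 group and no groups were compared. Of 22 values recomputed with both libraries, 7 stayed within the spread of the libraries (within 1.5 times for counts of genes) and 15 did not. Another 12 with 1 library left out all stayed, which says nothing on stability, since with 2 libraries such a value lies within their SD by construction. Genes past 1.5-fold came to 2699 without a minimum of reads and to 821 with at least 10 reads in each library, which follows from the number of low genes tested. The 100 genes with the highest mean TPM held 26.1% when counted by TPM, and 13.5% of reads when mitochondrially encoded genes were left out. The elongating spermatid list held 3.08% by exon reads, 8.48% by unique reads per exon length, 8.46% of TPM without mitochondrially encoded genes, and 2.43% without *Prm1*, *Prm2*, *Tnp1* and *Tnp2*. The length ratio was 1.90 without a minimum, 4.74 with 10 reads in each library, 3.37 by unique reads, and 3.57 without the 100 most abundant genes, and the ratio of X to autosomes 0.516, 0.409 and 0.408 under the same first 3 settings. The settings without *Prm1* and its 3 partners and without the 100 genes were chosen after seeing the data. With 1 library left out, genes with reads were 18276 to 18353, the first 100 genes held 13.9% to 14.2% of reads, the elongating list 8.13% to 8.29% of TPM, the length ratio was 3.73 to 3.81, the X ratio 0.433 to 0.444 and unique reads 97.5% to 97.6%. Leaving out a library could not be run for the count past 1.5-fold. Genes of few reads are limited by depth. At 5 to 20 reads the root mean square log2 ratio was 0.87, and the formula for counting error alone, which uses no prior count, gave 0.77. These values do not split the spread into parts.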
